A study of Arabidopsis thaliana with 12 samples.

Results

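UBQ10, UBQ14, XBAT35 and BPM3 are 4 Arabidopsis thaliana genes of the ubiquitin system that the authors listed with altered splicing in seedlings of a spliceosome mutant or in chilled seedlings. They were chosen by their gene identifiers in the 3 deposited tables of differential splicing events, so that being listed is what defines the group and is not a finding about it. They are 4 of the 1502 genes in those tables, with 6 of the 1911 distinct events. UBQ10 (AT4G05320) was listed in all 3 tables, UBQ14 (AT4G02890) and XBAT35 (AT3G23280) only in that of chilled smeb, and BPM3 (AT2G39760) only in that of chilled Col-0.

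Ubiquitin is a small protein that cells attach to other proteins, most often to mark them for destruction by the proteasome. An activating enzyme (E1) and a conjugating enzyme (E2) carry it, and a ligase (E3) chooses the target. Polyubiquitin genes encode several ubiquitin units head to tail in 1 reading frame, and the product is cut into single units after translation. Cullin ligases reach their targets through exchangeable adaptors. The leader of plant polyubiquitin genes usually holds an intron, and that of UBQ10 is known to raise expression. Chilling changes the splicing of many plant transcripts, and the Sm proteins form the ring that carries the small nuclear RNAs of the spliceosome.

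The libraries were made from whole seedlings 12 days old: the wild type Col-0 and the mutants smeb-1 and smeb-2, named for the Sm core protein SmEb. Seedlings of each genotype were kept at 22 °C or chilled at 4 °C for 24 h, with 2 replicates in each of the 6 groups. The labels do not give the lesions of the alleles, nor whether replicates were grown apart. The controls were held at 22 °C for 24 h by 1 label and taken at 0 h of cold by another. Of the deposited event tables, 1 is for smeb at 22 °C, 1 for chilled smeb and 1 for chilled Col-0. They name neither the groups compared nor the way smeb-1 and smeb-2 were combined. They hold no value per sample, no size or direction of change and no read count, so the depth is unknown, no test across samples could be run, and an event can only be described as listed or not.

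The table of chilled smeb lists 5 events of the 4 genes, that of chilled Col-0 lists 4, and that of smeb at 22 °C lists 1. As background, 4.52% of the 24197 annotated genes with an intron have an event in the chilled smeb table, 4.68% in the chilled Col-0 table and 0.112% in the table at 22 °C; since the 4 genes were picked from these tables, nothing is read from their count. All 3 events of UBQ10 stand with the same kind and position in both chilling tables. They are 3 of the 4 Col-0 events of the group (75%) and 3 of the 5 smeb events (60%). Over all genes, 807 events stand in both chilling tables, 60.3% of those in Col-0 and 59.4% of those in smeb. The single events of UBQ14, XBAT35 and BPM3 stand in 1 table each.

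**Figure D1:**
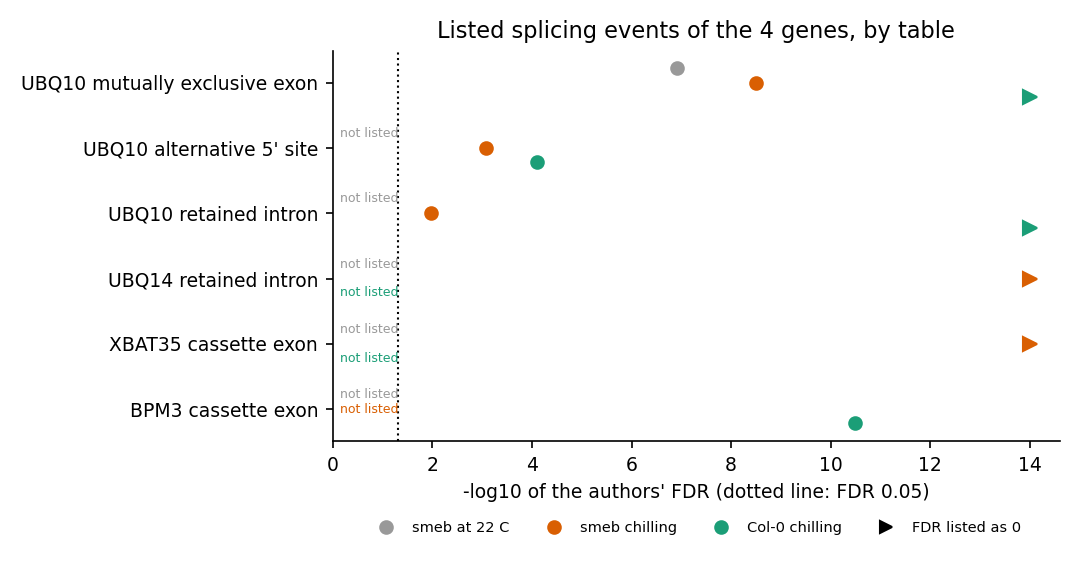
False discovery rates (FDR) of the 6 events in the authors' tables, as −log10 on the horizontal axis, with 1 colour per table and triangles at the right edge for an FDR listed as 0. The mutually exclusive exon of UBQ10 is the only event of the 4 genes in all 3 tables, and the retained intron of UBQ10 in chilled smeb, at 0.0106, lies nearest to the limit of 0.05.

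UBQ10 is a polyubiquitin gene on the plus strand of chromosome 4 (2717977 to 2720308, TAIR10), widely used as a reference gene because its transcript is abundant and steady. Its longest annotated coding sequence, 1374 bases, consists of 6 repeats of 228 bases, which is 76 codons or 1 ubiquitin unit, and 6 further bases. The repeats resemble each other closely: over the 15 pairs, identity ranges from 78.9% to 93%, with repeats 3 and 4 most alike. All 3 listed events lie in repeats 3 to 5.

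The first event of UBQ10 is a retained intron at 2719468 to 2719697. The FDR is 0 in the authors' deposited table for chilled Col-0 and 0.0106 in that for chilled smeb, where the event ranks 1075 of 1359 by p-value. Once 1 base is taken off at each end, it equals an intron of 228 bases that 1 of the 8 annotated transcripts carries as its intron 3, within the coding sequence. Its length is exactly that of 1 ubiquitin repeat. Taking it out therefore keeps the reading frame and leaves 1 unit fewer.

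The sequences at both edges of that intron are printed because they are nearly the same. Each line gives 24 bases on either side of the annotated boundary on the plus strand of chromosome 4, the upstream edge at chr4:2719445-2719492 and the downstream edge at chr4:2719673-2719720. Capitals mark the stretch that both edges share around the boundary.
UBQ10 upstream edge: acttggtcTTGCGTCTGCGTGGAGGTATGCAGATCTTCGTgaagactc
UBQ10 downstream edge: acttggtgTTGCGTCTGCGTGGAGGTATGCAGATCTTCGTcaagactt

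Across the shared stretch of 32 bases, the intron can be placed at 33 positions that all give the same spliced sequence. A read across the junction therefore does not say where the cut lies. As annotated, the intron starts with GT and ends with AG. Its 5′ splice site scores above 70.6% of the annotated introns of protein-coding genes on a position weight matrix, and its 3′ splice site above only 2.03%.

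The second event of UBQ10 is listed as a mutually exclusive exon of 101 bases, from 2719368 to 2719468, in repeat 4. In the authors' deposited tables its FDR is 0 in chilled Col-0, 3.16e-09 in chilled smeb and 1.23e-07 in smeb at 22 °C, where the same row stands 2 times. This kind of event is rare: there are 3 in each chilling table and 1 at 22 °C, which is that of UBQ10. No annotated transcript has this exon with both of its edges. Its first base follows an annotated intron of 456 bases, which is 2 repeats long, and its last base precedes the intron of 228 bases described above. The table gives 1 interval and does not name the exon that would replace it.

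The third event of UBQ10 is an alternative 5′ splice site of 51 bases, from 2719240 to 2719290. Its FDR is 8.1e-05 in the authors' deposited table for chilled Col-0 and 0.000829 in that for chilled smeb. Its first base is position 226 of repeat 3, the position in the unit at which, in repeat 4, the mutually exclusive exon ends. Its last base is position 48 of repeat 4 and also the last base of another annotated intron of 228 bases. Neither edge is an annotated exon end, and the base after it, 2719291, is an annotated exon start. By contrast, 232 of the 349 distinct alternative 5′ splice sites of annotated genes in the chilling tables (66.5%) end at an annotated exon end of their gene.

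**Figure D2:**
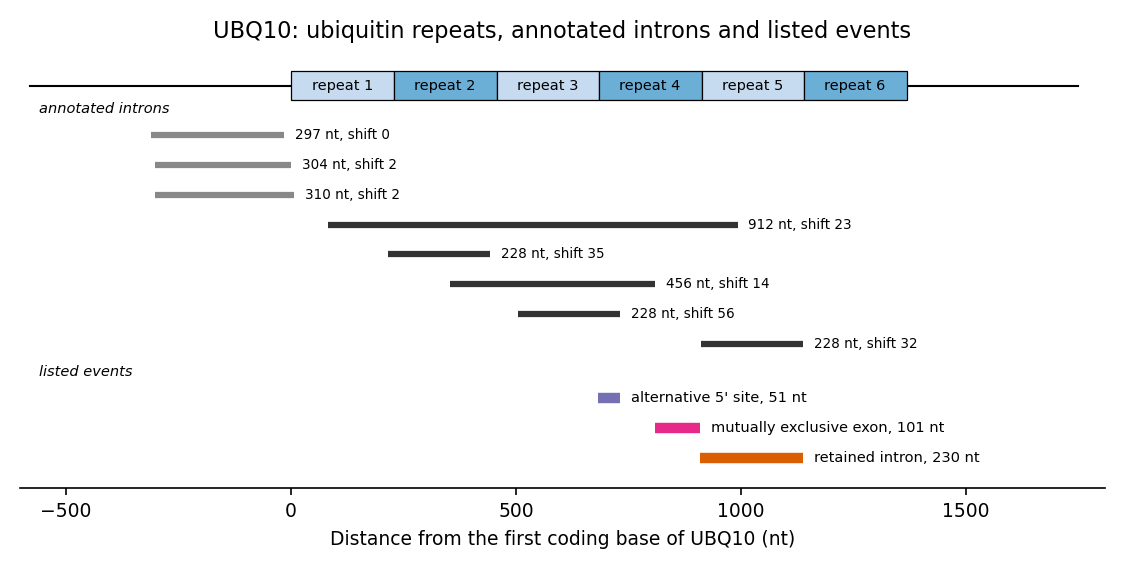
Map of UBQ10 with the distance from the first coding base in nt on the horizontal axis: the 6 ubiquitin repeats, the annotated introns with their length and shift (the number of bases by which the intron can be moved with the spliced sequence unchanged), and the 3 listed events. The 5 introns between repeats are 228, 456 or 912 nt long. The retained intron is 1 of them, and the mutually exclusive exon adjoins an end of it and of the intron of 456 nt. The alternative 5′ splice site lies inside another intron of 228 nt and shares its last base.

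The other annotated introns inside the coding sequence of UBQ10 are also whole repeats long. There are 5 in all, and the length of each is a whole number of repeats: 3 are of 228 bases, 1 of 456 and 1 of 912. Of the 5, 2 run from GT to AG and 3 from GC to AG, while 98.7% of the 131098 annotated introns of protein-coding genes run from GT to AG and 1.11% from GC to AG. The positions of the 5 can be moved by 14 to 56 bases with the same product, against a median of 2 over all introns. Of all introns, 0.222% can be moved by 10 or more and 0.156% by 20 or more. The UBQ10 intron of 456 bases, at 14, reaches only the lower of these limits. UBQ14 has 2 such introns between repeats, both of 228 bases, which can be moved by 8 and 9 bases, and neither is listed. UBQ4 and UBQ11 also have an intron of 228 bases within the coding span, movable by 26 and by 2 bases, and neither is listed. In all, 9 introns in 4 ubiquitin genes are whole repeats long, and 1 of them is listed.

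**Figure D3:**
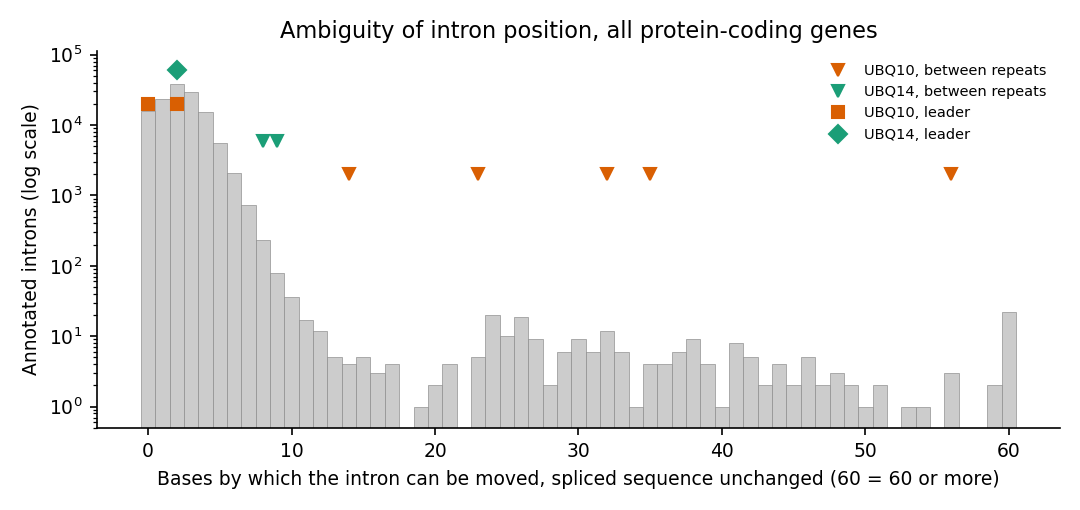
Annotated introns of protein-coding genes (bars, log scale) by the number of bases by which each can be moved without changing the spliced sequence, with the last bar for 60 or more. Symbols mark the introns of UBQ10 and UBQ14 and their height has no meaning: the 5 UBQ10 introns between repeats lie at 14 to 56 bases and the leader introns at 0 to 2.

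Short reads can also match more than 1 place in these repeats. Of the windows of 25 bases in the retained stretch of UBQ10, 20.1% occur again exactly elsewhere in the nuclear genome, this gene included. The same holds for 24.7% of those in the mutually exclusive exon and 51.9% of those in the alternative 5′ splice site. At 50 bases no window within these 3 intervals occurs a second time, although 13.7% of such windows in the whole coding sequence do. However, the alternative 5′ splice site holds only 2 windows of that length, the mutually exclusive exon 52 and the retained stretch 179. Windows that reach past the edges of an interval were not counted for it. Neither the read length nor the treatment of reads with several matches is given in the sources used here, and their part in the UBQ10 events was not tested.

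UBQ14 is a second polyubiquitin gene, on the minus strand of chromosome 4 (1278530 to 1280166), with 4 repeats that are 80.7% to 84.6% identical. Its event is a retained intron of the leader at 1279664 to 1279962, and in the authors' deposited table for chilled smeb its FDR is 0. It was listed neither in chilled Col-0 nor at 22 °C. Trimmed by 1 base at each end, the interval equals intron 1 of 297 bases, which 3 of the 4 annotated transcripts carry and which runs from GT to AG. It is long for a listed retained intron: 306 of the 327 in that table are shorter, and the median listed length is 98.

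The intron ends directly before the start codon, so that keeping it alters the leader and no codon. The annotated transcript that keeps it has the full coding sequence of 918 bases, as does 1 of the 3 that splice it; the other two also splice out an intron between repeats and keep 690 coding bases. The ends of the UBQ14 intron are shown with those of the UBQ10 leader intron, which has 304 bases and was listed in no table. The first 20 bases of each are at chr4:1279942-1279961 (minus strand) and chr4:2718255-2718274 (plus strand). The last 20 bases with the start codon are at chr4:1279662-1279684 and chr4:2718539-2718561. Capitals mark the GT, the AG and the start codon.
UBQ14 leader intron start: GTaaatttctgggttcttat
UBQ10 leader intron start: GTaaatttctgtgttcctta
UBQ14 leader intron end: cagttttttgtgaattacAGATG
UBQ10 leader intron end: tgagtttttctgattaacAGATG

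The 2 leader introns are 72.6% identical over the aligned 318 columns. Both 5′ splice sites score above 97.5% of annotated introns. The 3′ splice sites score above 83.1% for UBQ14 and 74.5% for UBQ10. By these measures the listed and the unlisted leader intron are much alike. In contrast to the repeats, no window of 25 bases in the UBQ14 intron occurs elsewhere in the nuclear genome. In the UBQ10 leader intron, 6 of 280 such windows (2.14%) do.

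A natural antisense transcript, the long non-coding RNA gene AT4G04335, lies on the plus strand at 1279643 to 1279985 and covers all 297 bases of the UBQ14 intron. Without strand, a read that lies wholly within 1279643 to 1279985 could come from this gene or from an unspliced UBQ14 transcript. Whether strand was used is not given in the sources used here, and the part of the antisense gene in the event was not tested. In the chilled smeb table, 38 of 327 retained introns (11.6%) are wholly covered by another annotated gene, of any type and on either strand.

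XBAT35 encodes a RING ligase with ankyrin repeats, on the plus strand of chromosome 3 (8321329 to 8324477). The reference has 2 transcripts that differ by exon 8 alone, and the 2 proteins are known to differ in location, the one with the exon being nuclear. That exon, of 72 bases at 8323099 to 8323170, is the listed event, a cassette exon whose FDR the authors' deposited table for chilled smeb gives as 0. It stands neither in the Col-0 table nor in that at 22 °C. Among the 387 cassette exons of the chilled smeb table, 175 are shorter.

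The exon adds 24 residues without a change of frame, from a protein of 438 residues to one of 462. It is rich in basic residues: 10 of its 23 whole codons (43.5%) are for lysine or arginine, against 49 of 462 (10.6%) in the whole protein. The exon is printed in full for that reason, from chr3:8323099-8323170 on the plus strand, with the lysine and arginine codons in capitals. The 3′ splice sites before exon 8 (chr3:8323079-8323101) and before exon 9 (chr3:8323343-8323365) follow, with the AG in capitals.
XBAT35 exon 8: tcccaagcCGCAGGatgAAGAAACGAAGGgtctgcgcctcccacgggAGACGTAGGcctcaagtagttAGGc
XBAT35 before exon 8: aattttattctggtggatAGtcc
XBAT35 before exon 9: ctaatctttctttctttcAGaaa

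The splice sites of exon 8 score low among annotated introns, and those it competes with score higher. The 3′ site in front of the exon scores above 11.1% of introns and the 5′ site behind it above 8%. When the exon is skipped, the 5′ site of exon 7 (above 58%) is joined to the 3′ site of exon 9 (above 82.9%). Among the XBAT35 introns that both transcripts splice, the lowest 5′ site scores above 8.95% and the lowest 3′ site above 18.3%. A low 5′ site is thus not particular to exon 8, and no part of these scores in the event was tested. No window of 25 bases in the exon occurs elsewhere in the genome. XBAT34, another ligase of the XBAT family, also has 10 exons and an exon 8 of 75 bases, which its 1 annotated transcript includes; it had no listed event.

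BPM3 encodes an adaptor with a MATH domain, which binds the target, and a BTB domain, which binds the cullin CUL3. It lies on the plus strand of chromosome 2 (16583003 to 16586260). The listed event is a cassette exon of 49 bases at 16585358 to 16585406. Its FDR is 3.28e-11 in the authors' deposited table for chilled Col-0, where it ranks 259 of 1339 by p-value, after 247 events listed at an FDR of 0. It was not listed in chilled smeb or at 22 °C.

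Of the 4 annotated transcripts of BPM3, 1 includes this exon as exon 4 of 5, 1 skips it, 1 ends downstream within a longer form of it, and 1 ends before it. The exon is not a multiple of 3, and its first 20 bases complete the reading frame, the last 3 of them being a stop codon. With the exon the annotated protein has 344 residues, and with the exon skipped 408, since the last exon then codes. The start of the exon is shown with the 20 intron bases before it, from chr2:16585338-16585377 on the plus strand, with the AG of the 3′ splice site and the stop codon in capitals.
BPM3 exon start: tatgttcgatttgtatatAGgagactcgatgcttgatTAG

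The 3′ splice site of the BPM3 exon scores above 66.1% of introns and its 5′ site above 20.2%. In the skipped form, the 5′ site of exon 3 scores above 46.5% and the last 3′ site above 71.5%. The exon of BPM3 thus lacks the weak 3′ splice site seen at exon 8 of XBAT35, while its 5′ site is below the middle of all introns. As in XBAT35, none of its windows of 25 bases is repeated in the genome.

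**Figure D4:**
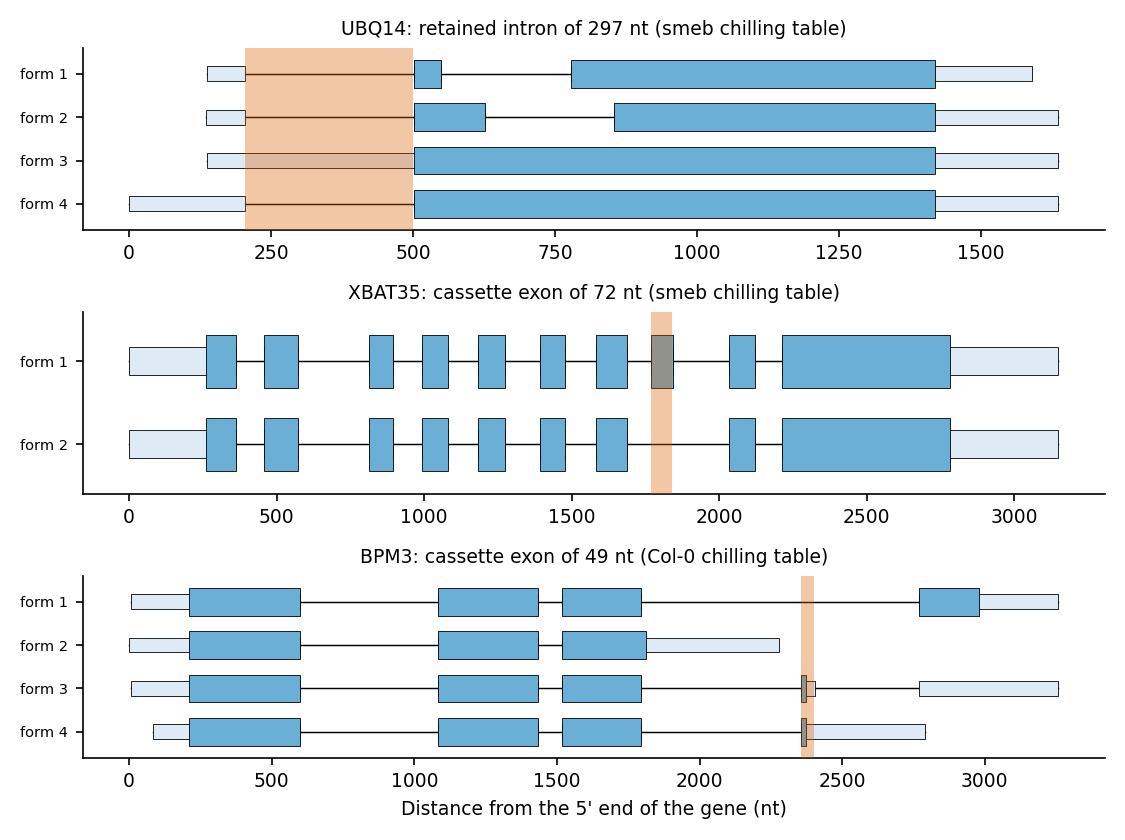
Annotated transcripts of UBQ14, XBAT35 and BPM3 drawn from the 5′ end of each gene, with the distance in nt on the horizontal axis, coding parts as tall boxes and other exon parts as low boxes; the listed event is shaded. The UBQ14 event lies wholly in the leader, exon 8 of XBAT35 is coding throughout, and in BPM3 the exon brings the end of the coding part forward.

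The authors' list of SmEb-dependent genes (394 genes) holds BPM3, and their list of SmEb-independent genes (352 genes) holds UBQ14 and XBAT35. UBQ10, which stands in both chilling tables, is in neither. The FDRs in these lists, 3.28e-11 for BPM3 and 0 for UBQ14 and XBAT35, are those of the events described above. For these genes the lists thus repeat which 1 chilling table holds the gene. They are no separate evidence that a change depends on SmEb or not. Nothing in the tables tests whether a change in 1 genotype differs from that in the other, and a gene missing from a table may have been tested and not passed, or not tested.

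Other genes of the ubiquitin pathway were taken from 7 lists of 80 loci in all, 71 of which have an annotated intron. Of these 71, 12 (16.9%) were listed in chilled smeb, 12 (16.9%) in chilled Col-0 and 1 (1.41%), UBQ10, at 22 °C. The lists were written with earlier results of these data known and hold the 4 genes themselves, which raises these shares. Of the 76 other loci, 9 were listed in chilled smeb, 10 in chilled Col-0 and 0 at 22 °C. The 76 include loci without an annotated intron, so these counts are not on the same base as the shares above. When genes were taken by words in their reference product names instead (935 genes with an intron), the shares were 4.17%, 4.6% and 0.214%. Pooled in this way, they are close to the background above for the chilling tables, but the 8 word lists differ. In chilled smeb they range from 1.03% (F-box, 389 genes with an intron) to 18.8% (polyubiquitin, 16 genes). In chilled Col-0 they range from 1.29% (F-box) to 18.8% (E2, 32 genes). The word lists can hold the 4 genes too. Of the 71 genes, 7 were listed in both chilling tables, 5 only in Col-0 and 5 only in smeb. The 7 are 58.3% of the pathway genes in each chilling table, while the 746 genes in both tables are 65.4% of all genes listed in Col-0 and 68% of those in smeb.

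**Figure D5:**
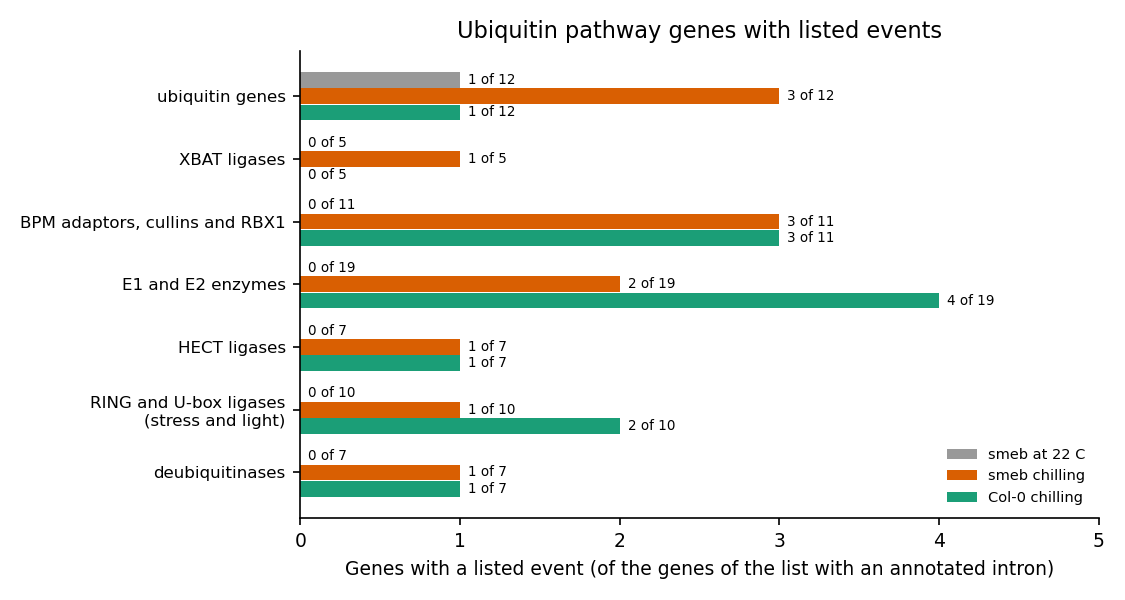
Number of genes with a listed event in each of the 7 pathway lists (horizontal axis), by table, with the number of genes of the list that have an annotated intron. UBQ10 is the only gene of the 7 lists in the table at 22 °C, and each list has at least 1 gene in the chilled smeb table.

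Of the 15 ubiquitin genes, UBQ3 (AT5G03240) was the only one listed besides UBQ10 and UBQ14. Its event is again the retained leader intron, of 375 bases at 772896 to 773272 on chromosome 5 (FDR 0.0127, the authors' deposited table for chilled smeb). Both leader introns listed, of 9 annotated in 6 ubiquitin genes, stand in the chilled smeb table and in no other. Of all 1359 events in chilled smeb, 807 (59.4%) also stand in chilled Col-0. Since UBQ14 was chosen because it was listed, nothing is read from this count. The 9 include alternative forms of the same intron. Of the 5 XBAT ligases only XBAT35 was listed.

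Among the BPM adaptors, BPM1 (AT5G19000) and BPM2 (AT3G06190) were listed with cassette exons as well. In the authors' deposited tables for chilled Col-0 and chilled smeb, the exon of BPM1 (82 bases) has an FDR of 0. It belongs to an annotated form with 442 residues, and 407 are encoded without it. In the authors' deposited table for chilled smeb, that of BPM2 (83 bases) has an FDR of 0.00161; it is not in that of Col-0. The annotated BPM2 transcript with the exon encodes 298 residues, against 295 to 406 in the 3 forms that skip it. Cassette exons were thus listed in 3 of 6 BPM genes, each within the coding span. No 2 of the 3 genes share a pattern over the tables. Since being listed is what selected BPM3, nothing is read from this count or from the patterns. Of the 44 genes with an intron taken by BTB in the product name, each chilling table lists 4 (9.09%), for any kind of event. Over all genes with an intron that share is 4.52% for smeb and 4.68% for Col-0. A share for cassette exons alone was not computed.

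CUL1 (AT4G02570), the scaffold of ligases with F-box adaptors, had different leader events in the chilling tables. In the authors' deposited table, chilled smeb had the cassette exon 2 (101 bases, FDR 0.00118) and the retained intron 1 (94 bases, FDR 0.033). Chilled Col-0 had an alternative 5′ splice site of 46 bases (FDR 0.0357, the authors' deposited table). That stretch ends at the same base, 1128858, as exon 2.

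Of the E2 enzymes, UBC8 (AT5G41700) and UBC9 (AT4G27960) had intron 1 listed as retained, and the authors' deposited tables give an FDR of 0 for it in both chilled genotypes. The intron of UBC8 (163 bases) lies in the leader. An alternative 5′ splice site of 56 bases, from the last base before that intron, was also listed. The authors' deposited tables give its FDR as 1.8e-08 in chilled Col-0 and 1.03e-12 in chilled smeb. UBC35 (AT1G78870) and UBC19 (AT3G20060) stood in chilled Col-0 alone. The authors' deposited table gives intron 5 of UBC35 as retained (FDR 0.0289) and a cassette exon of 20 bases in UBC19 (FDR 0.0326) that no annotated transcript has as an exon.

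Among the ligases, RGLG1 (AT3G01650), a RING ligase, had the same cassette exon of 58 bases in both genotypes. No annotated transcript has this stretch as an exon, and it lies outside the coding span. The FDR of the event is 6.49e-07 in the authors' deposited table for chilled Col-0 and 2.61e-09 in that for chilled smeb. COP1 (AT2G32950), the repressor of light responses, had an alternative 3′ splice site of 410 bases in chilled Col-0 (FDR 0.0126, the authors' deposited table). Of the HECT ligases, KAK (AT4G38600, also UPL3), which limits the branching of leaf hairs, had its last intron, 17 of 17 and outside the coding span, listed as retained in chilled smeb, with its FDR given as 0 by the authors' deposited table. UPL7 (AT3G53090) had an alternative end in chilled Col-0 (FDR 0.0229, the authors' deposited table). The deubiquitinase UBP15 (AT1G17110) was listed in both, with an alternative 5′ splice site in Col-0 (FDR 0.0267) and an alternative start in smeb (FDR 0.00133) in the authors' deposited tables.

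Among these listed genes, the position of the UBQ10 events is a feature that the choice of genes did not use, given here without a test. They lie within the repeated coding sequence, and the length of the retained intron is that of a whole repeat. The retained introns of UBQ14, UBQ3, UBC8, UBC9, UBC35, CUL1 and KAK do not lie between ubiquitin repeats. Their lengths are therefore no comparison for that of UBQ10. All of these retained introns, that of UBQ10 included, start with GT and end with AG. With 3 events, UBQ10 is also among the 36 of 1097 genes (3.28%) in chilled smeb and the 27 of 1140 (2.37%) in chilled Col-0 that have 3 or more.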

How the data were processed

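The submitters sequenced RNA of 12 libraries in 6 groups. TopHat2 2.0.13, Trimmomatic 0.32 and the build TAIR10 are named in the submitters' processing notes. The event caller, read length, strand setting and test were not given in the sources used here. Of the 7 deposited tables, 3 list events and 2 list genes, each with a p-value that the authors headed adjusted and an FDR, per the file headers; 2 gene ontology tables were not used. The depth per sample is unknown, and no test was run.

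The 4 genes and all lists were chosen with earlier results of these data known. Identical rows were counted once. Positions are 1-based and were compared with the annotation of TAIR10.1, which shares the coordinates of TAIR10; retained introns were trimmed by 1 base at each end. Sequences come from that RefSeq assembly. Splice sites were scored with position weight matrices (3 exon and 6 intron bases at the 5′ site, 20 intron and 3 exon bases at the 3′ site) built from all annotated introns of protein-coding genes with 20 or more bases, and both scores and shifts were tested on simulated data. Named pathway genes are all listed members of the 7 lists. Python 3.11.15 and pandas 2.3.3 were used.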

Additional observations from a re-analysis of the deposited data

How the results depend on the processing

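No paired analysis was possible because the tables hold no values per sample, and no replicate could be left out for the same reason. With an FDR under 0.01 or under 0.001 in the authors' tables, the events of the 4 genes numbered 4 in chilled smeb, where the retained intron of UBQ10 drops out, 4 in chilled Col-0 and 1 at 22 °C. Counting repeated rows gave 2 at 22 °C and changed neither chilling count. The 3 events shared between the chilling tables stayed 3 when 1 common boundary or an overlap of 1 base was enough, and were 2 with an FDR under 0.01 in both tables, an alternative chosen after seeing the data. Without trimming, 0 of the 2 retained introns of the 4 genes equal an annotated intron, because the listed intervals include 1 exon base at each end. All 6 events lie inside their listed gene. Pathway lists made from words in the reference product names gave 4.17% in place of 16.9% for chilled smeb, 4.6% in place of 16.9% for chilled Col-0 and 0.214% in place of 1.41% at 22 °C; these lists hold other genes and many more of them.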
